A study of Mus musculus with 8 samples.

Results

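The 10 genes described here are regulators of the melanocyte lineage and genes that mark melanoma cell states. They are Mitf, Sox10, Pax3, Tfap2a, Mc1r, Kit, Ednrb, Axl, Ngfr and Cdh2. The list names them as lineage or state genes by their known roles and sets no threshold on values, though it was drawn up with earlier results of these data known. All 10 were found by symbol among the 55487 genes of the deposited tables. The tables hold RNA sequencing values of 8 libraries, 1 per mouse, from 4 mice given tacrolimus and 4 given vehicle. C57BL/6 mice carried subcutaneous tumors grown from B16F10, a pigmented mouse melanoma line. When tumors reached about 50 mm3, 7 to 9 days after injection, the tacrolimus group received the drug intraperitoneally at 3 mg/kg and the vehicle group received vehicle by the same route, each every 5 days, and tumors were taken 6 days after treatment began. The labels describe the RNA as that of flow-sorted CD8+ lymphocytes from the digested tumors, so these 10 genes are not defining genes of the labelled cell type. Tacrolimus (FK506) inhibits the phosphatase calcineurin.

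Melanocytes arise from the neural crest. SOX10 and PAX3 activate Mitf, and MITF, a basic helix-loop-helix leucine zipper factor, activates pigment enzymes and survival genes. MC1R, KIT and EDNRB are the receptors through which melanocortin, stem cell factor and endothelin reach this program. Melanoma cells can move between a differentiated state with high MITF and less differentiated states, in which AXL, NGFR or N-cadherin (Cdh2) mark invasive or neural crest-like cells.

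The sequence elements through which this program works can be read in the promoter windows of GRCm38.p6 in RefSeq, which run from 250 bases before to 50 bases after a gene's start. Of the 10 genes, 7 had such a window. The windows below are shown because the values of Mitf, Mc1r and the pigment genes are compared in the results. The capitals mark TCATGTG, the M-box bound by MITF, in Mc1r, Tyrp1 and Tyr. In the most downstream of the 3 Mitf windows, which belongs to the melanocyte-specific first exon, they mark CTTTGAT, the core bound by LEF/TCF factors, and TGACGTCA, the cAMP response element through which MC1R signaling reaches Mitf.
Mitf (chr6:97991533-97991832, plus strand): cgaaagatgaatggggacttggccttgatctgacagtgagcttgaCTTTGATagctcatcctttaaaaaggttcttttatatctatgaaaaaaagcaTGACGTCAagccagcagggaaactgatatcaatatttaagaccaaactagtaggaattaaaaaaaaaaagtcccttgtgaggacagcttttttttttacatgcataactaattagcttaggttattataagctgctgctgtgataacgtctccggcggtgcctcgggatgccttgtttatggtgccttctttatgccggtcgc
Mc1r (chr8:123406832-123407131, plus strand): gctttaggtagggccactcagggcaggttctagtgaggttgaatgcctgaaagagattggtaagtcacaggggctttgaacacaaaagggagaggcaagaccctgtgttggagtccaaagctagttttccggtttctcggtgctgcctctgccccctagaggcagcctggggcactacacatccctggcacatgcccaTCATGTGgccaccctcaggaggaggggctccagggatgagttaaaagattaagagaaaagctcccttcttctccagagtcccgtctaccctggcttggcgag
Tyrp1 (chr4:80833963-80834262, plus strand): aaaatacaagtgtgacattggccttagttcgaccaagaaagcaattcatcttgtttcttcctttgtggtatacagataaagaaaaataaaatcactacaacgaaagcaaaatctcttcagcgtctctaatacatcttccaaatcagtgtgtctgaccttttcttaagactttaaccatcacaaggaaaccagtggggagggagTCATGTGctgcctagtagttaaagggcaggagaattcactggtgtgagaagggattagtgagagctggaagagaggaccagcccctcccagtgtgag
Tyr (chr7:87493463-87493762, minus strand): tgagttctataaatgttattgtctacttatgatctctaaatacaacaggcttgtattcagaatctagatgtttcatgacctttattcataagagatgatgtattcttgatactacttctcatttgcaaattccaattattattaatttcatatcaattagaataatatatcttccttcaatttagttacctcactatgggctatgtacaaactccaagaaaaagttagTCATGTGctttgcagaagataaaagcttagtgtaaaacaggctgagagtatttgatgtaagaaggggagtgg

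The M-box letters TCATGTG, sought on both strands, were present in 3.77% of the 32851 windows of all genes. Among the 7 of the 10 genes with a window, only Mc1r held them, 52 bases before its start. Counts of genes are of those with the letters in any of their windows, so they are not in the same unit as the shares of windows. Among 14 pigment genes, 9 had a window and 5 of these held the letters, namely Dct, Slc24a5, Trpm1, Tyr and Tyrp1. In Tyrp1 they lay 47 bases and in Tyr 22 bases before the start. The cAMP response element letters TGACGTCA were in 1.79% and CTTTGAT in 3.73% of all windows, and the downstream Mitf window held both, at 153 and 205 bases before its start. The AP-2 consensus GCCNNNGGC was in 16.6% of all windows and in at least 1 window of 5 of the 7 genes with a window (Axl, Ednrb, Kit, Mc1r and Mitf). These matches describe letters in a window, not bound sites. The deposited values are per gene, so the 3 starts of Mitf cannot be told apart in them.

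The loci, in the GENCODE M21 annotation of GRCm38, are Mitf at chromosome 6, 97807052 to 98021349 on the plus strand, Sox10 at chromosome 15, 79154908 to 79165240 on the minus strand, Pax3 at chromosome 1, 78101267 to 78197134 on the minus strand, and Tfap2a at chromosome 13, 40715302 to 40738376 on the minus strand. Mc1r lies at chromosome 8, 123407107 to 123410744 on the plus strand, Kit at chromosome 5, 75574916 to 75656722 on the plus strand and Ednrb at chromosome 14, 103814625 to 103844402 on the minus strand. Axl lies at chromosome 7, 25757273 to 25788705, Ngfr at chromosome 11, 95568818 to 95587735 and Cdh2 at chromosome 18, 16588877 to 16809246, all on the minus strand.

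The deposited values are FPKM, which divide a gene's sequenced fragments by its length and by the library's depth, so levels can be compared between genes. The libraries correspond to an estimated 15550000 to 19100000 fragments. In all 8 of them, the summed FPKM of pigment genes was far above that of T cell markers. The pigment sum was mostly Dct (11339 to 21246 FPKM over the 8 libraries), and sums of unlike marker sets do not measure the RNA of each cell type. The FPKM of 14 pigment genes summed to between 23392 and 28742 in tacrolimus libraries and between 19866 and 35664 in vehicle libraries. The sum of 10 T cell markers was 54.7 to 433 FPKM in tacrolimus libraries and 438 to 1690 in vehicle libraries, and that of 10 macrophage markers was 225 to 529 and 404 to 1713 FPKM. Vehicle replicate 1 stood apart, with the highest T cell and macrophage sums and the lowest pigment sum, and carried 63.9% of the squared scores on principal component 1. In bulk RNA, fewer cells of a type and less RNA per cell cannot be told apart.

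Averaged over the 8 libraries, the 10 genes ordered from Sox10 at 128 FPKM through Mitf at 48.9, Pax3 at 39.0, Mc1r at 28.2, Axl at 9.39, Kit at 8.92, Tfap2a at 4.91, Cdh2 at 4.87 and Ednrb at 3.55 to Ngfr at 0.021 FPKM. Sox10 lay above the whole range of Mitf. The ranges of Mitf, Pax3 and Mc1r overlapped as neighbours in this order, yet Mitf was above Pax3 and Pax3 above Mc1r in each of the 8 libraries. Mc1r lay above the whole range of Axl. From Axl down to Ednrb, each gene's range overlapped that of the next, and Tfap2a was above Cdh2 in 4 of 8 libraries. Sox10 ranked between place 767 and place 1718 of all genes in a library, and Ednrb between place 8770 and place 12662.

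**Figure D1:**
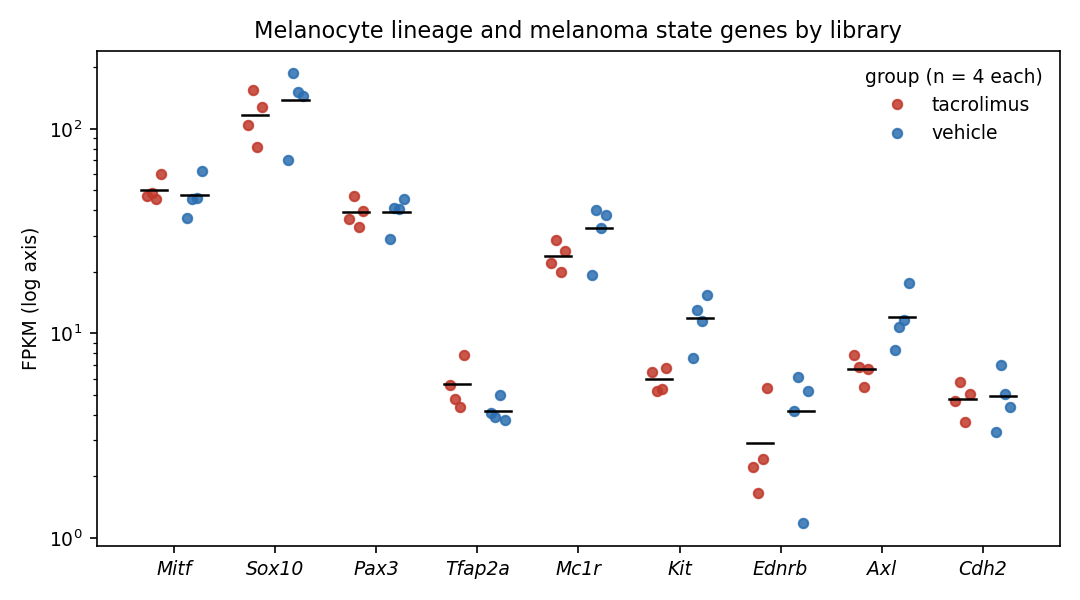
FPKM of 9 of the 10 genes on a log axis, 1 point per library, with tacrolimus (red) to the left of vehicle (blue) and a black bar at the group mean (n = 4 each); Ngfr, listed at 0 in 7 of 8 libraries, is not drawn. The points of Kit and Axl do not overlap between the groups, with tacrolimus at 5.23 to 6.79 and 5.45 to 7.86 FPKM, and vehicle at 7.59 to 15.45 and 8.29 to 17.59 FPKM.

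The comparison of tacrolimus with vehicle found no gene past an adjusted p of 0.05 in limma, which is 0 of 13032 genes tested, or 0%. At an unadjusted p under 0.05 in limma, 15.8% of all genes tested were lower and 1.6% higher in tacrolimus libraries. Of the 10 genes, 9 reached an FPKM of 1 in at least 4 libraries and were tested. None passed the adjusted threshold, and 2 of the 9, Kit and Axl, were lower at an unadjusted p under 0.05. None was higher. The groups did not overlap, with tacrolimus lower, for 10.2% of all genes tested and for the same 2 of the 9, and with tacrolimus higher for 0.767% of all genes and for 0 of the 9. The mean was lower with tacrolimus for 6 of the 9 and for 75.7% of all genes. The median of the 9 differences was -0.19 on the log2(FPKM + 1) scale, and the median of all genes tested was also -0.19. With median-of-ratios or upper-quartile scaling the median of all genes moved by 0.19 and 0.24, so each difference is also given relative to the median gene.

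Scaling shifted the share of higher against lower genes, and with it the background. With median-of-ratios scaling 6.15% of all genes were lower and 5.18% higher at an unadjusted p under 0.05, against 2 of the 9 lower (Kit and Axl) and 1 higher (Tfap2a). With upper-quartile scaling 4.4% were lower and 7.67% higher, against 1 lower (Kit) and 2 higher (Mitf and Tfap2a). Relative to the mean level of the 14 pigment genes in each library, 1.41% were lower and 4.37% higher, against 2 lower (Kit and Axl) and 2 higher (Mitf and Tfap2a). None of the 9 passed the adjusted threshold in limma under any of the 3.

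**Figure D2:**
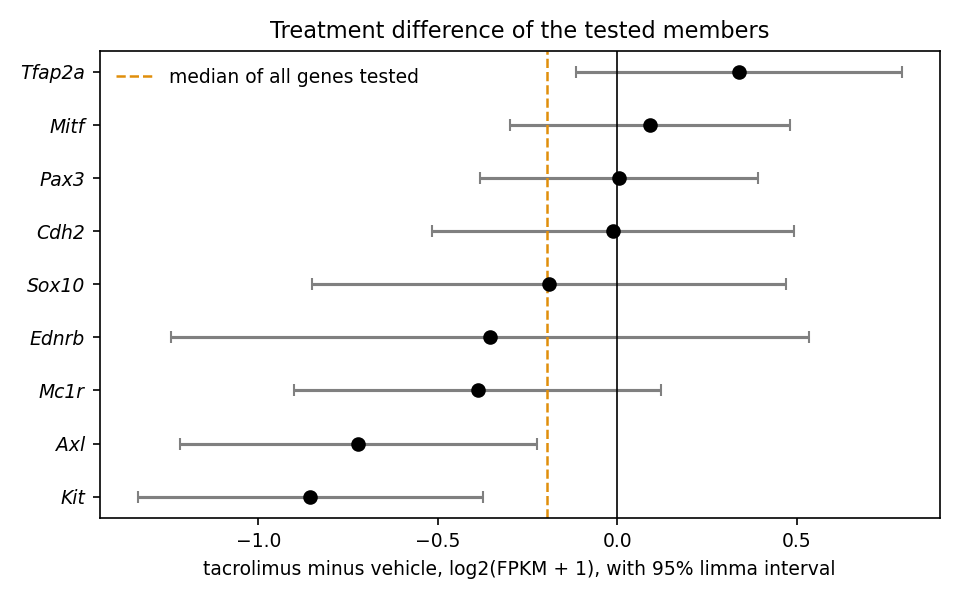
Log2(FPKM + 1) difference between tacrolimus and vehicle, with vehicle subtracted, for the 9 genes tested, with the 95% interval of limma (n = 4 mice each); the dashed line marks the median of all genes tested at -0.19. Kit at -0.86 and Axl at -0.72 have intervals that lie below 0, and Tfap2a at 0.34 is the highest.

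The transcription factors at the head of the program are described first. Mitf was at 46.9, 48.3, 45.5 and 59.9 FPKM in tacrolimus replicates 1 to 4, against 36.7, 45.3, 45.9 and 62.4 FPKM in vehicle replicates 1 to 4. The groups overlapped, and replicate 4 was the highest library in each. The mean was 50.1 ± 6.58 FPKM with tacrolimus and 47.6 ± 10.7 FPKM with vehicle (SD, n = 4 each), a log2 difference of 0.09 (SE 0.17, 95% interval -0.30 to 0.48, limma adjusted p = 0.799), or 0.29 relative to the median gene. The direction turned to -0.02 without vehicle replicate 1. A processed pseudogene, Gm15531, is annotated within Mitf on the opposite strand. Relative to the mean level of the 14 pigment genes in each library, the Mitf difference was 0.35 (SE 0.14, limma adjusted p = 0.786) and the groups no longer overlapped, where 2.8% of all genes were apart with tacrolimus higher.

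Sox10, which encodes the high-mobility-group factor that drives Mitf in neural crest derivatives, was at 104, 154, 81.9 and 128 FPKM in tacrolimus replicates 1 to 4. In vehicle replicates 1 to 4 it was at 70.5, 187, 151 and 145 FPKM. Vehicle replicate 1 was the lowest of all 8 libraries and the other 3 vehicle libraries were among the 4 highest. The mean was 117 ± 31.2 FPKM with tacrolimus and 138 ± 48.9 FPKM with vehicle, and the log2 difference was -0.19 (SE 0.30, limma adjusted p = 0.748), or 0.00 relative to the median gene. Without vehicle replicate 1 the difference was -0.48, lower at an unadjusted p of 0.046 in limma (adjusted p = 0.229), as for 19.3% of all genes in that fit. The direction turned to 0.03 with median-of-ratios and 0.08 with upper-quartile scaling.

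Pax3, a paired-box factor of the neural crest, was at 36.1, 47.0, 33.2 and 39.5 FPKM in tacrolimus replicates 1 to 4, against 28.9, 41.0, 40.7 and 45.6 FPKM in vehicle replicates 1 to 4. The groups overlapped over nearly their whole ranges. The mean was 39.0 ± 5.96 FPKM with tacrolimus and 39.1 ± 7.10 FPKM with vehicle, and the log2 difference was 0.00 (SE 0.17, 95% interval -0.38 to 0.39, limma adjusted p = 0.992), or 0.20 relative to the median gene. Its sign was not stable, with -0.09 without tacrolimus replicate 2 and -0.13 without vehicle replicate 1.

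Tfap2a, which encodes AP-2 alpha, a co-regulator of melanocyte genes with MITF, was at 5.60, 4.76, 4.38 and 7.85 FPKM in tacrolimus replicates 1 to 4, against 4.08, 3.91, 4.97 and 3.75 FPKM in vehicle replicates 1 to 4. Vehicle replicate 3 lay within the tacrolimus range. The mean was 5.65 ± 1.55 FPKM with tacrolimus and 4.18 ± 0.55 FPKM with vehicle, and the log2 difference was 0.34 (SE 0.20, limma adjusted p = 0.395), or 0.53 relative to the median gene. It was higher than that of 93.9% of all genes tested. With median-of-ratios and upper-quartile scaling the difference was 0.52 and 0.56 (limma adjusted p = 0.409 and 0.389) and the groups did not overlap, where 2.96% and 4.5% of all genes were apart with tacrolimus higher. Without tacrolimus replicate 4 it was 0.19 in the values as deposited. Antisense transcripts are annotated within Tfap2a, and without strand their reads cannot be told from those of the gene.

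Among the receptors, Kit had the lowest difference. Kit encodes the receptor tyrosine kinase for stem cell factor, which melanoblasts need for migration and survival and which mast cells also carry. It was at 6.45, 5.23, 5.37 and 6.79 FPKM in tacrolimus replicates 1 to 4. In vehicle replicates 1 to 4 it was at 7.59, 12.98, 11.48 and 15.45 FPKM. All 4 tacrolimus libraries were below all 4 vehicle libraries, and vehicle replicate 1 was the vehicle library nearest to them. The mean was 5.96 ± 0.78 FPKM with tacrolimus and 11.9 ± 3.29 FPKM with vehicle. The log2 difference was -0.86, or 1.81-fold lower in FPKM + 1, and -0.66 relative to the median gene. The 95% interval was -1.34 to -0.37 with an SE of 0.22. The limma fit across all genes gave an unadjusted p = 0.00268 and an adjusted p = 0.183, so Kit did not pass. It ranked place 189 by p, and 5.81% of all genes tested had a lower difference. Over all alternatives the difference ran from -1.04 without vehicle replicate 1 to -0.59 relative to the pigment genes, with adjusted p from 0.103 to 0.786 in limma. The groups stayed apart with median-of-ratios scaling (3.67% of all genes apart and lower) and relative to the pigment genes (0.89%), and overlapped with upper-quartile scaling, where 2.42% of all genes were apart and lower.

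Mast cell markers were at or near 0 beside Kit. Of 7 such markers, 4 were listed at 0 in every library and none was tested. Their sum was 0.18 to 0.60 FPKM in tacrolimus libraries and 0.26 to 8.21 in vehicle libraries. The highest sum was that of vehicle replicate 1, of which 8.14 FPKM was Hdc, and that library had the lowest Kit level of the vehicle group. Kitl, which encodes stem cell factor, was at 2.1 ± 0.82 FPKM with tacrolimus and 1.08 ± 0.64 FPKM with vehicle, and the log2 difference was 0.58 (limma adjusted p = 0.324), and its groups overlapped.

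Axl, a receptor tyrosine kinase of the TAM family that marks invasive melanoma cells and is also made by macrophages and dendritic cells, was at 7.86, 6.88, 5.45 and 6.69 FPKM in tacrolimus replicates 1 to 4. In vehicle replicates 1 to 4 it was at 8.29, 10.8, 11.6 and 17.6 FPKM. All 4 tacrolimus libraries were below all 4 vehicle libraries, though tacrolimus replicate 1 came close to vehicle replicate 1. The mean was 6.72 ± 0.99 FPKM with tacrolimus and 12.1 ± 3.94 FPKM with vehicle. The log2 difference was -0.72, or 1.65-fold lower in FPKM + 1, and -0.53 relative to the median gene. The 95% interval was -1.22 to -0.22 with an SE of 0.22. The limma fit across all genes gave an unadjusted p = 0.00891 and an adjusted p = 0.197, so Axl did not pass. With median-of-ratios scaling, with upper-quartile scaling and relative to the pigment genes the groups overlapped, at differences of -0.52, -0.48 and -0.46. Without vehicle replicate 4, the highest library, the difference was -0.54.

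All 10 macrophage markers had lower means with tacrolimus (median log2 difference -1.08), beside 75.7% and a median of -0.19 for all genes. Their sums were 387, 225, 529 and 387 FPKM in tacrolimus replicates 1 to 4, against 1713, 623, 404 and 1046 FPKM in vehicle replicates 1 to 4. Vehicle replicate 4 had the highest Axl and Kit levels of all 8 libraries and the macrophage sum next to the highest, while vehicle replicate 1 had the highest sum and the lowest Axl and Kit levels of its group. Across the 8 libraries Pearson's r with the macrophage level was 0.42 for Axl (Spearman's rho 0.29, exact permutation p = 0.304 and 0.501) and 0.46 for Kit (rho 0.57, exact permutation p = 0.258 and 0.151), with adjusted p from 0.486 to 0.704 over 45 pairs. Without vehicle replicates 1 and 4, the farthest from the median level, r was 0.14 for Axl and 0.47 for Kit.

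The T cell sums were 433, 54.7, 223 and 218 FPKM in tacrolimus replicates 1 to 4, against 1690, 438, 625 and 552 FPKM in vehicle replicates 1 to 4. Like Kit and Axl, this sum was lower in every tacrolimus library than in every vehicle library. Across the 8 libraries r with the T cell level was 0.46 for Axl (rho 0.74, exact permutation p = 0.246 and 0.0458, adjusted p = 0.552 and 0.312). For Kit r was 0.51 (rho 0.71, exact permutation p = 0.203 and 0.0576, adjusted p = 0.552 and 0.312). Without tacrolimus replicate 2 and vehicle replicate 1, the farthest from the median level, r was 0.86 for Axl and 0.79 for Kit. With levels centred on their group means r was -0.29 for Axl and -0.31 for Kit with the T cell level, and -0.19 and -0.22 with the macrophage level.

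Mc1r, the melanocortin receptor that raises cAMP and so switches melanocytes to dark pigment, was at 22.0, 28.5, 19.9 and 25.4 FPKM in tacrolimus replicates 1 to 4. In vehicle replicates 1 to 4 it was at 19.3, 40.3, 32.6 and 38.0 FPKM. Vehicle replicate 1 was the lowest of the 8 libraries, and the other 3 vehicle libraries were above all 4 tacrolimus libraries. With its single annotated transcript of 3638 bases, Mc1r rested on about 1076 to 2218 fragments per library. The mean was 23.9 ± 3.79 FPKM with tacrolimus and 32.5 ± 9.40 FPKM with vehicle, and the log2 difference was -0.39 (SE 0.23, 95% interval -0.90 to 0.12, limma adjusted p = 0.387), or -0.19 relative to the median gene. Without vehicle replicate 1 the difference was -0.61 (unadjusted p = 0.00425, adjusted p = 0.201 in limma). In that fit 19.3% of all genes were lower at an unadjusted p under 0.05, and the median of all genes was -0.24. A second protein-coding gene model, Gm20388, overlaps Mc1r on the same strand, so its reads may be divided between them.

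Mc1r followed the pigment genes. Across the 8 libraries its log2 level and the mean log2 level of the 14 pigment genes had Pearson's r = 0.96 (exact permutation p = 9.18e-04, adjusted p = 0.0413 over 45 pairs of 9 genes and 5 marker lists). Spearman's rho was 0.90 (exact permutation p = 0.00456, adjusted p = 0.205). Without vehicle replicates 1 and 4, the libraries farthest from the median pigment level, r was 0.94. With both levels centred on their group means r was 0.95 (permutation p = 2.98e-04, adjusted p = 0.0134). Centred values were permuted across both groups, though centring leaves them not exchangeable between groups. The p-values of centred levels are therefore not exact and may be too small. By Pearson's r it was the single pair of the 45 past an adjusted p of 0.05, as measured and centred. By Spearman's rho no pair passed as measured. With centred levels 2 passed, Mc1r with the pigment level (rho 0.95) and Pax3 with the T cell level (rho -0.95). Both had a permutation p of 0.00114 and an adjusted p of 0.0257, with the same limit. As measured, Pax3 with the T cell level had r = -0.58 and rho = -0.31 (exact permutation p = 0.131 and 0.462, adjusted p = 0.552 and 0.693). Without tacrolimus replicate 2 and vehicle replicate 1 the r of this pair was 0.64 as measured and -0.64 with centred levels. Of the 8 genes other than Mc1r, 7 had a positive r with the pigment level, from 0.45 for Ednrb to 0.87 for Sox10 (exact permutation p = 0.00965, adjusted p = 0.217), and Tfap2a had -0.20. The libraries share their composition, in that more RNA of one cell type leaves less of the others.

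**Figure D3:**
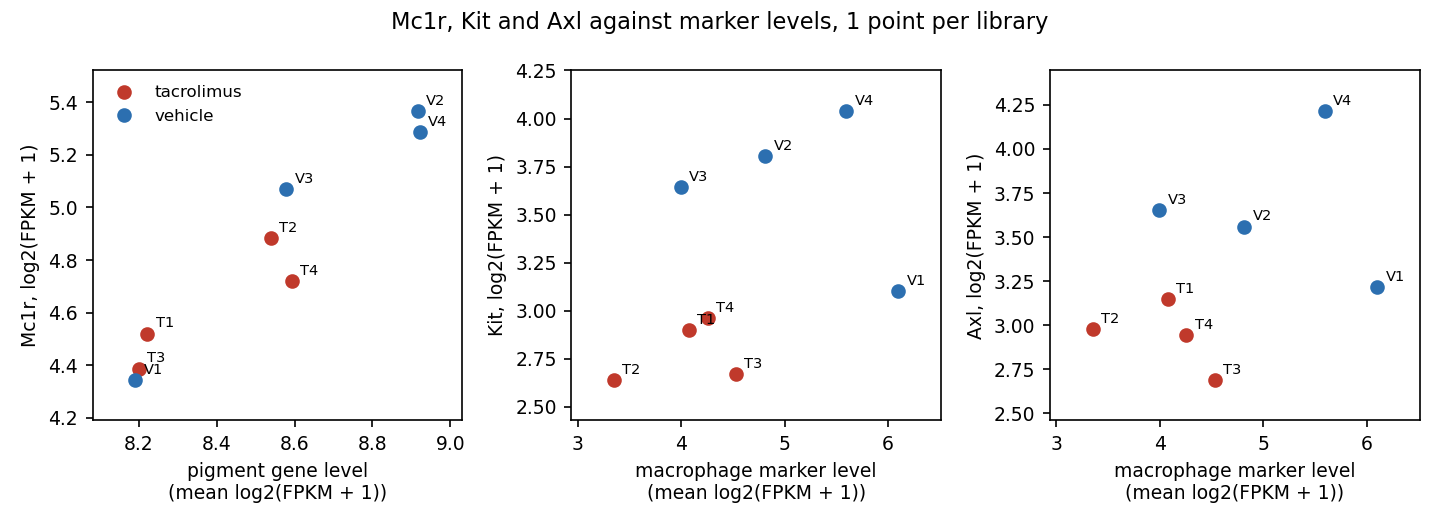
Mc1r against the mean log2(FPKM + 1) of 14 pigment genes (left), and Kit (middle) and Axl (right) against that of 10 macrophage markers, with 1 point per library labelled T for tacrolimus (red) and V for vehicle (blue) with the replicate number. Mc1r lies along a line with the pigment level (r = 0.96), while Kit and Axl are highest in vehicle replicate 4, whose macrophage level is next to the highest, and are lower in vehicle replicate 1, which has the highest macrophage level, than in the other vehicle libraries.

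Ednrb, the endothelin receptor of melanoblasts, varied most within the groups among the 9 genes tested. It was at 2.21, 1.66, 2.43 and 5.40 FPKM in tacrolimus replicates 1 to 4, against 4.18, 6.13, 1.18 and 5.21 FPKM in vehicle replicates 1 to 4. Vehicle replicate 3 was below all 4 tacrolimus libraries, tacrolimus replicate 4 was below only vehicle replicate 2, and the groups overlapped. The mean was 2.93 ± 1.68 FPKM with tacrolimus and 4.18 ± 2.15 FPKM with vehicle, and the log2 difference was -0.35 (SE 0.40, 95% interval -1.24 to 0.54, limma adjusted p = 0.648), or -0.16 relative to the median gene. With 1 library left out it ran from -0.73 without vehicle replicate 3 to -0.16 without vehicle replicate 2, and it was -0.62 without tacrolimus replicate 4, -0.20 without tacrolimus replicate 2 and -0.22 without vehicle replicate 4. Relative to the pigment genes it was -0.091. Of its ligands, Edn2 and Edn3 were listed at 0 in every library, and Edn1 was at 0.30 ± 0.18 FPKM with tacrolimus and 0.55 ± 0.46 FPKM with vehicle. Endothelial cells also carry endothelin receptors, and the summed level of 7 endothelial markers was 28.0 to 53.0 FPKM in tacrolimus libraries and 22.0 to 67.2 FPKM in vehicle libraries. Across the 8 libraries the r of Ednrb with the level of the 4 endothelial markers tested was 0.43 (rho 0.40, exact permutation p = 0.274 and 0.327, adjusted p = 0.552 and 0.566 over the 45 pairs). It was -0.37 without tacrolimus replicate 4 and vehicle replicate 2.

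Of the state markers, Cdh2, which encodes the adhesion molecule N-cadherin, was at 4.67, 5.76, 3.69 and 5.06 FPKM in tacrolimus replicates 1 to 4, against 3.31, 7.03, 5.04 and 4.38 FPKM in vehicle replicates 1 to 4. The tacrolimus libraries all lay within the vehicle range. The mean was 4.80 ± 0.86 FPKM with tacrolimus and 4.94 ± 1.57 FPKM with vehicle, and the log2 difference was -0.01 (SE 0.23, 95% interval -0.52 to 0.49, limma adjusted p = 0.983), or 0.18 relative to the median gene. The sign turned under 7 of 18 alternatives, among them both rescalings of the libraries. An antisense transcript is annotated within Cdh2. Cdh1, the E-cadherin that melanocytes use to hold on to keratinocytes, was at 2.04 ± 1.65 FPKM with tacrolimus and 1.83 ± 1.38 FPKM with vehicle.

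Ngfr, the low-affinity neurotrophin receptor of neural crest-like melanoma cells, was listed at 0 in all 4 tacrolimus libraries and in 3 of 4 vehicle libraries. In vehicle replicate 1 it was at 0.17 FPKM, or about 9 fragments over its single annotated transcript of 3446 bases. It was below the minimum for testing, and in a fit with no minimum its limma adjusted p was 0.669. One fragment was worth 0.016 to 0.020 FPKM of Ngfr. Foxd3, another neural crest factor, was listed at 0 in every library. Sox10, the neural crest factor that was most abundant among the 10 genes, was present in all 8.

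Levels within a library compare the genes with each other independently of the scaling. Kit relative to Mitf was -3.07 ± 0.15 on the log2 scale with tacrolimus and -2.02 ± 0.19 with vehicle (SD, n = 4 each), so that Kit stood at 0.108 to 0.137 of the Mitf level in tacrolimus libraries and 0.207 to 0.287 in vehicle libraries. Axl relative to Mitf was -2.90 ± 0.26 with tacrolimus and -2.01 ± 0.14 with vehicle, a share of 0.112 to 0.167 of Mitf in tacrolimus libraries and 0.226 to 0.282 in vehicle libraries. Neither ratio overlapped between the groups, and both were lower with tacrolimus. The ratio to Mitf was apart and lower for 11.2% of the other genes tested and apart and higher for 0.399%, beside 2 and 0 of the 8 genes. Relative to Sox10, Kit was narrowly apart between the groups (-4.27 ± 0.43 with tacrolimus, -3.50 ± 0.33 with vehicle). The nearest libraries were tacrolimus replicate 3 at -3.93 and vehicle replicate 2 at -3.85. Axl overlapped (-4.10 ± 0.34 with tacrolimus, -3.49 ± 0.52 with vehicle), as did Mc1r (-2.27 ± 0.17 with tacrolimus, -2.06 ± 0.18 with vehicle). Besides Mitf, no other gene of the 10 was set against Sox10. The ratio to Sox10 was apart and lower for 0.583% of the other genes tested and apart and higher for 0.445%. The ratio of Sox10 to Mitf was 1.19 ± 0.35 with tacrolimus and 1.48 ± 0.49 with vehicle, and that of Pax3 to Mitf was -0.37 ± 0.24 with tacrolimus and -0.28 ± 0.15 with vehicle, both overlapping. These ratios are descriptions, since they were formed among genes whose levels were already known, and carry no test.

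**Figure D4:**
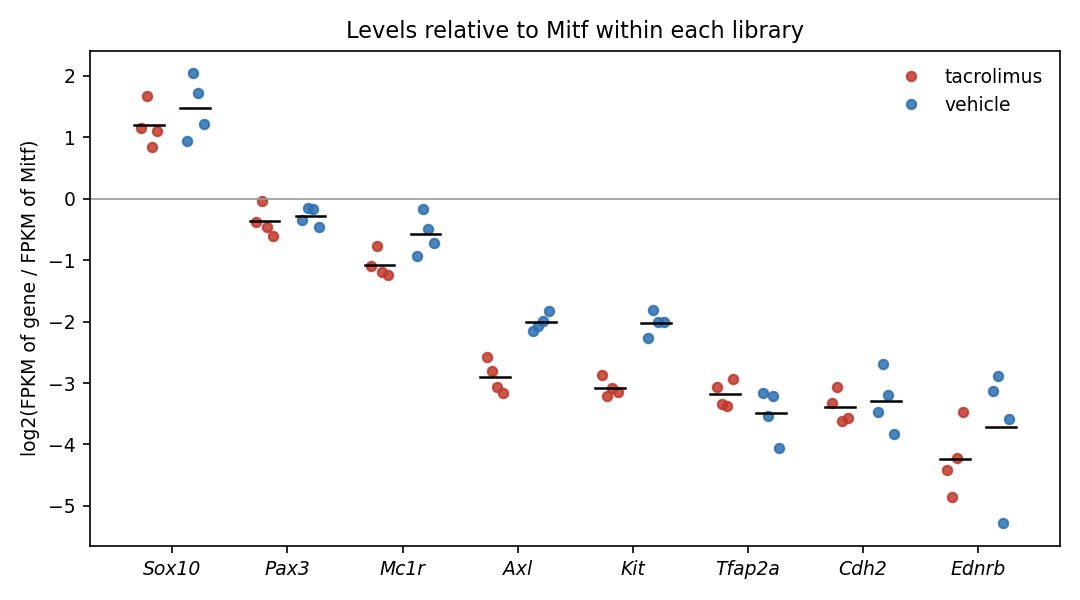
Log2 ratio of the FPKM of 8 genes to that of Mitf within each library, with tacrolimus (red) left of vehicle (blue) and a black bar at the group mean (n = 4 each). The ratios of Axl (-3.16 to -2.58 with tacrolimus, -2.15 to -1.83 with vehicle) and Kit (-3.21 to -2.86 with tacrolimus, -2.27 to -1.80 with vehicle) do not overlap between the groups, and the other 6 do.

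Family relatives of the 10 genes were measured at other levels. Of the TAM receptors, Mertk, which clears dying cells, was at 153 ± 26.6 FPKM with tacrolimus and 128 ± 57.7 FPKM with vehicle, 140.7 FPKM over all libraries against 9.39 for Axl and 2.67 for Tyro3. Mertk had a log2 difference of 0.35 and Tyro3 of -0.37 (limma adjusted p = 0.532 and 0.380), and the groups overlapped for both. Vehicle replicate 4, with the highest Axl level at 17.6 FPKM, had the lowest Mertk level at 73.8 FPKM. Of the MiT/TFE factors, Tfeb and Tfe3, which control lysosome genes, were at 16.0 ± 2.96 and 11.5 ± 4.21 FPKM with tacrolimus and 21.0 ± 3.61 and 15.3 ± 3.83 FPKM with vehicle, below Mitf in every library. Flt3, a relative of KIT, was at 4.12 ± 2.26 FPKM with tacrolimus and 4.57 ± 2.02 FPKM with vehicle. Tfec was at 1.43 ± 2.06 FPKM with tacrolimus and 1.72 ± 0.95 FPKM with vehicle. Pax7 was listed at 0 in every library, and Sox8 and the endothelin receptor Ednra averaged 0.074 and 0.46 FPKM. In all, 7 of 14 relatives were tested, 5 with a lower and 2 with a higher mean, beside 75.7% of all genes lower. Their median was -0.37 beside -0.19 for all genes, and none passed at an unadjusted p under 0.05.

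**Figure D5:**
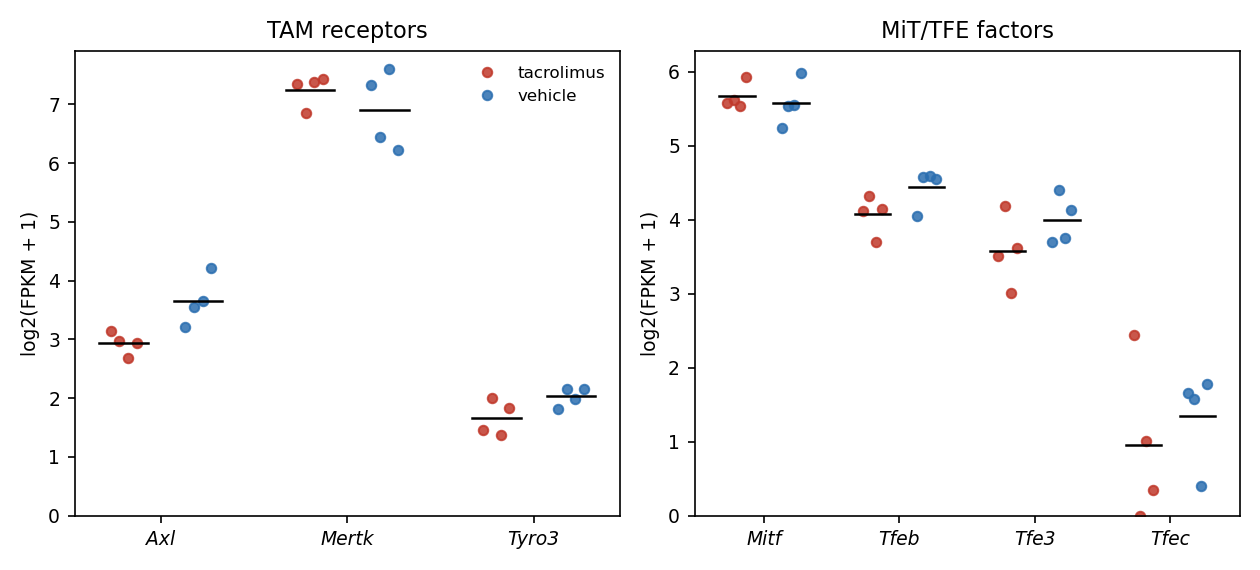
Log2(FPKM + 1) of the TAM receptors Axl, Mertk and Tyro3 (left) and of the MiT/TFE factors Mitf, Tfeb, Tfe3 and Tfec (right), 1 point per library, with tacrolimus (red) left of vehicle (blue) and a black bar at the group mean (n = 4 each). Mertk lies far above Axl in both groups, and Mitf lies above its 3 relatives.

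The other genes of the program were read from lists. All 14 pigment genes were tested, 12 with a lower and 2 with a higher mean in tacrolimus libraries, beside 75.7% of all genes lower. Their median was -0.33 beside -0.19 for all genes, and none was past an unadjusted p of 0.05. Dct, a melanin synthesis enzyme, was at 16629 ± 1471 FPKM with tacrolimus and 16528 ± 4060 FPKM with vehicle. Pmel, the fibril protein of melanosomes, was at 4956 ± 736 FPKM with tacrolimus and 6477 ± 1629 FPKM with vehicle. Tyrp1, another melanin synthesis enzyme, was at 1667 ± 278 FPKM with tacrolimus and 2255 ± 476 FPKM with vehicle. Mlana, a melanosome protein, was at 1084 ± 94.1 FPKM with tacrolimus and 1056 ± 280 FPKM with vehicle. Of 13 ligands and modulators matched, 7 were tested, 5 lower and 2 higher, beside 75.7% of all genes lower. None was past an unadjusted p of 0.05. Sort1, a sorting receptor that pairs with NGFR, was at 34.8 ± 10.5 FPKM with tacrolimus and 41.0 ± 12.2 FPKM with vehicle. Mgrn1, a ubiquitin ligase that restrains melanocortin receptors, was at 21.0 ± 3.32 FPKM with tacrolimus and 27.1 ± 5.12 FPKM with vehicle. The AXL ligands Pros1 and Gas6 averaged 8.66 and 4.28 FPKM over the 8 libraries, and Pomc, the precursor of melanocortin, 2.22 FPKM.

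Of 12 other lineage factors, 7 were tested, 4 lower and 3 higher, beside 75.7% of all genes lower. At an unadjusted p under 0.05, 3 of the 7 were lower, beside 15.8% of all genes. These were Bhlhe40, at 136 ± 9.16 FPKM with tacrolimus and 176 ± 26.3 FPKM with vehicle, and Ets1 and Lef1, which T cells also express. Ets1 was at 50.0 ± 8.64 FPKM with tacrolimus and 72.4 ± 10.2 FPKM with vehicle without overlap, and Lef1 at 0.57 ± 0.59 FPKM with tacrolimus and 3.20 ± 2.61 FPKM with vehicle. All 10 T cell markers had lower means in the tacrolimus libraries (median -1.89), beside 75.7% and a median of -0.19 for all genes. The part of T cells in these values was not tested. Zeb2, an EMT factor of the melanocyte lineage, was at 31.0 ± 6.22 FPKM with tacrolimus and 30.4 ± 4.67 FPKM with vehicle, and Tbx2 averaged 20.9 FPKM over all libraries.

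Of 20 genes listed for melanoma cell states, 12 were tested, 6 lower and 6 higher, at a median of -0.01. Of all genes 75.7% were lower, at a median of -0.19. Most were listed for less differentiated states, but the list also holds the cadherin genes Cdh1 and Cdh3. Cdh1 (log2 difference 0.03) is among the 6 higher, so these counts are not of less differentiated genes alone. Jun was lower at an unadjusted p under 0.05, as were 15.8% of all genes. It was at 70.7 ± 14.2 FPKM with tacrolimus and 99.0 ± 16.7 FPKM with vehicle (log2 difference -0.49, limma adjusted p = 0.227). Vim, the intermediate filament of mesenchymal cells, was at 495 ± 40.0 FPKM with tacrolimus and 563 ± 33.9 FPKM with vehicle. S100b, a neural crest calcium-binding protein, was at 169 ± 27.4 FPKM with tacrolimus and 159 ± 19.8 FPKM with vehicle. Fn1, fibronectin, averaged 10.1 FPKM over all libraries. Genes of this list below the minimum for testing included Egfr, Wnt5a, Twist1, Tnc, Fosl1, Pdgfrb and Cdh3.

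Markers of other cells that carry Sox10, Ngfr, Tfap2a or Cdh2 were compared as well. Of 7 Schwann cell markers, Mbp and Cdh19 were tested and averaged 149.9 and 28.1 FPKM. Of 7 keratinocyte markers none was tested and 3 were listed at 0 in every library; their sum was 0 to 1.83 FPKM in tacrolimus libraries and 0.10 to 0.68 FPKM in vehicle libraries. The sum over 7 fibroblast markers was 33.8 to 59.0 FPKM with tacrolimus and 46.5 to 75.3 FPKM with vehicle. All 5 fibroblast markers tested had lower means in tacrolimus libraries (median -0.44), beside 75.7% and a median of -0.19 for all genes. Across the 8 libraries r with the level of these 5 markers was 0.54 for Axl (rho 0.69, exact permutation p = 0.169 and 0.0694), 0.54 for Kit (rho 0.71, exact permutation p = 0.165 and 0.0576) and -0.14 for Cdh2 (rho -0.14, exact permutation p = 0.740 and 0.752). The adjusted p over the 45 pairs was 0.312 or more for each of these. Without tacrolimus replicate 3 and vehicle replicate 1 r was 0.66 for Axl, 0.71 for Kit and 0.069 for Cdh2, and with group-centred levels it was -0.11, -0.25 and -0.23.

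For each gene tested, the 3 genes whose profile over the 8 libraries was most like it were found among genes with a mean FPKM of 10 or more. Likeness was the root mean square difference of log2(FPKM + 1) after centring each gene on its own mean. Pmel was the nearest to Mc1r of 6859 genes, at 0.06, where the median gene was at 0.34. Kat2a and St6gal1, which are not on the pigment list, were almost as near, at 0.07 each. The nearest to Sox10 were Tcf7l1 at 0.07, Pianp at 0.09 and the lineage factor Tbx2 at 0.09 (median gene 0.42). Those of Mitf included Zfp326 at 0.08 and Impad1 at 0.10 (median gene 0.32), and those of Pax3 were 4933434E20Rik, Appl2 and Vipas39 at 0.06 to 0.09. For Kit the nearest were Dusp6, a MAPK phosphatase, at 0.16, Sssca1 and Lrrc47 (median gene 0.46), and for Axl Mgll at 0.15, Brca1 at 0.15 and Letm1 (median gene 0.45). For Cdh2 they were Lonp1, Cpe and Rtkn at 0.06 to 0.07. Tfap2a had no gene nearer than 0.16 and Ednrb none nearer than 0.30.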

How the data were processed

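RNA of 8 mice was compared, 4 given tacrolimus and 4 given vehicle, grouped and numbered by their titles. It came from sorted CD8+ cells and was extracted with Trizol, per the labels' protocols. The submitters' processing notes name HISAT2 2.1.0, RSEM 1.3.1, DESeq2 1.24.0 and GRCm38.p6, without role or order. The deposited tables hold 1 value per Ensembl gene, inferred from the values to be FPKM, already scaled by the authors for length and library size. After multiplication by transcript length less 240 to 280 bases, 86.4% to 88.1% of low values of genes with 1 transcript of 500 to 1500 bases lay within 0.15 steps of a whole multiple, against 30.0% if evenly spread, which gave the depth. Whole fragments could not be recovered gene by gene, so no count model was used.

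Genes that reached an FPKM of 1 in 4 or more of the 8 libraries were compared as log2(FPKM + 1) with limma 3.58.1 (trend, treatment as the only term) in R 4.3.3, with Benjamini-Hochberg adjustment over all 13032 genes. Fold changes on this scale understate the change of low genes. On simulated data of this comparison (12793 genes), 67 of 100 genes changed by 1 and 91 of 100 changed by 2 on the log2 scale were called, with 8 of 12593 unchanged genes. The changed genes were drawn from more abundant genes only, above levels such as those of Tfap2a, Cdh2 and Ednrb. The simulated noise was independent between genes, so shifts that many genes share in a library were not simulated. Relations between levels used exact two-sided permutation over 40320 orders. For group-centred levels these orders also cross the groups, so their p-values are not exact. Python 3.11.15 and matplotlib 3.10.9 made the plots. The 10 genes and all lists were chosen with earlier results of these data known. From each list the most abundant genes, and any gene past the adjusted threshold, were to be named; some other list members (such as Lef1, Ets1, Jun, Kitl, Mlana, Gas6 and Tfec) and the genes of the fibroblast and mast cell lists were named after their values were seen. Asip was not matched by symbol and is not reported. Identical values made up at most 1.69% of those compared in any pair of libraries. A few genes that these rules would name are not reported here.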

Additional observations from a re-analysis of the deposited data

Results flagged for a closer look

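Vehicle replicate 1 stood apart from the rest of its group in Ngfr. It was listed at 0.17 FPKM there, while the other 3 vehicle libraries and all 4 tacrolimus libraries were listed at 0, so the gap to the nearest library was the whole range of the group. With 3 of 4 values at 0, any other value in the fourth library gives this outcome, so passing Dixon's critical value of 0.829 says nothing beyond the value itself. None of the other 18 groups of 4 values with a range passed it; the Ngfr values of the tacrolimus group have no range. The same library had the highest T cell and macrophage marker sums, at 1690 and 1713 FPKM, and their part in this value was not tested.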

How the results depend on the processing

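The values limit small changes: with 4 mice per group the 95% interval was narrowest for Pax3 (-0.38 to 0.39) and widest for Ednrb (-1.24 to 0.54) on the log2 scale, and no result passed for Kit or Axl under any of 18 alternatives. The count of genes at an adjusted p under 0.05 in limma, 0 as reported (2056 lower and 208 higher at an unadjusted p under 0.05), was 121 with the replicate number as a block and from 0 to 1 with 1 library left out, the 1 being Gm37167 without vehicle replicate 1, named after its values were seen; the cause was not tested. None of the 10 genes was among the 121 (Kit adjusted p = 0.103, Axl 0.157). The titles number the mice within each group and state no pairing, and whether the numbers pair the mice was not tested. Deviations of same-numbered libraries from their group means correlated at 0.21, 0.28, -0.02 and -0.02 for replicates 1 to 4. Tacrolimus replicates 1 and 2 correlated best with the vehicle library of their own number, and tacrolimus replicates 3 and 4 did not. Kit, Axl, Mc1r, Ednrb and Tfap2a kept their direction in all 18. Mitf turned to -0.022 without vehicle replicate 1 and ran up to 0.23 without vehicle replicate 4. Sox10 turned to 0.028 with median-of-ratios scaling, 0.078 with upper-quartile scaling and 0.072 relative to the pigment genes. Pax3 turned to -0.019 with library weights and, with 1 library left out, ran from -0.13 to 0.083. Cdh2 turned to 0.17, 0.21 and 0.25 under the same 3 scalings and to 0.0054 with library weights, and ran from -0.15 to 0.15 with 1 library left out, in turn 0.09 without tacrolimus replicate 3, 0.15 and 0.01 without vehicle replicates 2 and 3. The number of genes, of the 9 tested, at an unadjusted p under 0.05 was 2 lower as reported, beside 15.8% of all genes. Without vehicle replicate 1 it was 4 lower, beside 19.3% of all genes. With upper-quartile scaling it was 1 lower and 2 higher, beside 4.4% and 7.67% of all genes. Relative to the pigment genes it was 2 lower and 2 higher, beside 1.41% and 4.37% of all genes. All genes split into 801 lower and 675 higher with median-of-ratios scaling and 574 and 999 with upper-quartile scaling. By Pearson's r, relations past an adjusted p of 0.05 numbered 1 of 45 as reported, with group-centred values and with a pseudocount of 0.1. By Spearman's rho they numbered 0, 2 and 0. The group-centred counts rest on p-values that are not exact and may be too small. Of the r values, 13 of the 45 changed sign without their 2 extreme libraries.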
